A study of Mus musculus with 4 samples.

Results

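The antigen receptor loci of the mouse are the stretches of the genome where lymphocytes assemble the genes of antibodies and T cell receptors. CTCF and RAD21 peaks were taken from 5 peak lists wherever the summit lay in 1 of 4 windows of the mm10 genome. The windows were chr12:113200000-116100000 for Igh (antibody heavy chain), chr14:52400000-54300000 for Tcra and Tcrd (T cell receptor alpha and delta chains, interleaved in a single stretch), chr6:40850000-41600000 for Tcrb (beta chain) and chr6:67500000-70800000 for Igk (antibody kappa light chain). They held 1102 of the 198113 peaks of the 5 lists on chromosomes 1 to 19, X and Y. Peaks that overlap across lists were joined into 467 sites, of which 234 lay in Igh, 119 in Tcra and Tcrd, 23 in Tcrb and 91 in Igk.

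The peaks were mapped by ChIPmentation, a form of ChIP-seq that tags the precipitated chromatin with sequencing adapters by Tn5 transposition while it is still bound to beads. The material was gastruloids, aggregates of mouse embryonic stem cells that elongate into an axis in culture, which were pooled and fixed at 96 h after aggregation. CTCF was mapped in DelCBS7-10, InsCBS5-10 and wild-type gastruloids, and RAD21 in InsCBS5-10. Both mutants carry the HoxB alleles Del and Del(i9-13): a HoxB copy is deleted, and the other copy lacks i9-13 and carries Ins(CBS5-10), an insertion of CTCF binding sites. DelCBS7-10 has in addition Del(CBS7-10), which removes some of the inserted sites. All of these edits are on chromosome 11, so the receptor loci have the wild-type sequence in each genotype as far as the labels say. Each group was 1 library of pooled gastruloids, so no difference below has a replicate check and no test was made. A second RAD21 list, whose peak names say wild type at 96 h, matches no sample of the series, which is in part a reanalysis of earlier data. It is given as the authors' own list beside the others. The lists held 36589 (DelCBS7-10 CTCF), 34499 (InsCBS5-10 CTCF), 47931 (wild-type CTCF), 19610 (InsCBS5-10 RAD21) and 59484 (second RAD21 list) peaks. Numbers of reads are unknown from the peak lists, so a peak that is not in a list was not called there and may still be bound.

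As background, developing B and T cells join V, D and J segments of these loci by V(D)J recombination. In Igh and in the T cell receptor loci the V segments form long arrays on one side of the D, J and C (constant) segments. CTCF binds DNA at a long motif, and cohesin, the ring complex of which RAD21 is a subunit, is held there as it extrudes loops. In lymphocytes this brings distant V segments near the J segments, and CTCF sites between V and D or J segments (IGCR1 in Igh, Cer and Sis in Igk) are known to restrain the use of the nearest V segments. Gastruloids at this stage model the early embryo, before lymphocytes form, so these lists show the loci in cells that do not recombine them.

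Nearly all sites lay among gene segments, for which no sequence is given in the tables used here. Promoter sequences (250 bases before to 50 after a gene's start, RefSeq, GRCm38.p6) were held for 39 windows of 38 genes in the 4 loci, of which 2 overlapped a CTCF peak. They are shown because they are the sequences under CTCF peaks of these loci that could be read. Gm30948 is a non-coding gene among the Igh V segments (chr12:115262401-115262700, plus strand), and Rpia, next to Igk, encodes an enzyme of the pentose phosphate pathway (chr6:70792176-70792425, minus strand, the 250 bases before its start). The last run of capitals marks up to 10 bases on either side of a CTCF summit, that of DelCBS7-10 in Gm30948 and that of InsCBS5-10 in Rpia. The wild-type summits, at chr12:115262705 and chr6:70792139, lay outside the stretches printed here. Only that of Rpia lay inside the promoter window of its gene. The first run in Gm30948 (bases 220 to 231) is the closest match, with 1 mismatch, to the core CTCF motif searched here.

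Gm30948: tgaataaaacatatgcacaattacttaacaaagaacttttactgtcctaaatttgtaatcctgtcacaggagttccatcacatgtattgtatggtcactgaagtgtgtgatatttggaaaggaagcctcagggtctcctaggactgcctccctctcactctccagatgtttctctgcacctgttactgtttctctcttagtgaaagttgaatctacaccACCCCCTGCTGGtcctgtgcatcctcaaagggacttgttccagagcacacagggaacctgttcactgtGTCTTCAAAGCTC

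Rpia: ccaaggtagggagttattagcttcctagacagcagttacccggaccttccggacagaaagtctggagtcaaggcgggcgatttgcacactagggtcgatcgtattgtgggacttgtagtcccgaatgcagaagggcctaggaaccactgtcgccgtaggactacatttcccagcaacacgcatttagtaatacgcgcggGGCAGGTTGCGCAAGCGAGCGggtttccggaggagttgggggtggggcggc

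The motif searched was CCNNNAGNNGGC on both strands, in which N is any base. Neither promoter held an exact match, against 8.61% of 32851 promoters of the genome with one and 38.7% of the 1465 promoters with a wild-type CTCF summit outside chromosome 11. A match with up to 1 mismatch was held by 65.0% of all promoters, so the one in Gm30948 is a description only. The Gm30948 peak had a fold enrichment over background of 4.50 in DelCBS7-10 and 4.46 in wild type and was not called in InsCBS5-10. At Rpia the CTCF fold was 4.42 in InsCBS5-10 and 8.93 in wild type, and no peak was called in DelCBS7-10. Fold enrichment is the authors' value for each peak, the signal over background within that library. It is compared only within a list, except to rank the sites found in or missing from a single CTCF list.

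Igh and Tcra/Tcrd were dense in CTCF peaks, and Tcrb and Igk were not. In wild-type gastruloids Igh held 169 CTCF peaks, or 58.3 per Mb (95% Poisson interval 49.8 to 67.8), against 17.5 per Mb on the rest of chromosome 12. The ratio was 3.33 (2.84 to 3.87), and all 38 other windows of the same width along chromosome 12 held fewer peaks, at most 107. With only peaks whose −log10 q reached 5 the ratio was 2.04. Tcra/Tcrd held 83 peaks, or 43.7 per Mb (34.8 to 54.2), against 18.4 per Mb on the rest of chromosome 14, a ratio of 2.38 (1.90 to 2.95). Of 62 windows of its width on chromosome 14, 58 held fewer. Tcrb had 15 peaks, 20.0 per Mb (11.2 to 33.0), and Igk had 50, 15.2 per Mb (11.2 to 20.0), against 18.1 per Mb on the rest of chromosome 6. The intervals of the ratios, 0.618 to 1.82 for Tcrb and 0.621 to 1.10 for Igk, both hold 1. All intervals here cover counting error only.

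Igh and Tcra/Tcrd were also the dense loci in the mutant lists. In DelCBS7-10 the CTCF density was 33.1 per Mb in Igh, 40.5 in Tcra/Tcrd, 14.7 in Tcrb and 10.6 in Igk, against 13.5, 13.0, 14.1 and 14.1 per Mb on the rest of the chromosome of each. In InsCBS5-10 it was 27.9, 37.9, 16.0 and 10.9 per Mb in the same loci, against 12.3, 12.9, 13.2 and 13.2. Igh had the higher density of these loci in wild type and Tcra/Tcrd in both mutants, with intervals that overlap in each list. RAD21 in InsCBS5-10 was 2.15 times as dense in Igh as on the rest of its chromosome (1.58 to 2.86), but in Tcra/Tcrd the ratio of 1.34 had an interval that holds 1 (0.792 to 2.11). In the second RAD21 list the ratios were 1.83 (1.5 to 2.22) for Igh and 2.01 (1.59 to 2.50) for Tcra/Tcrd.

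**Figure D1:**
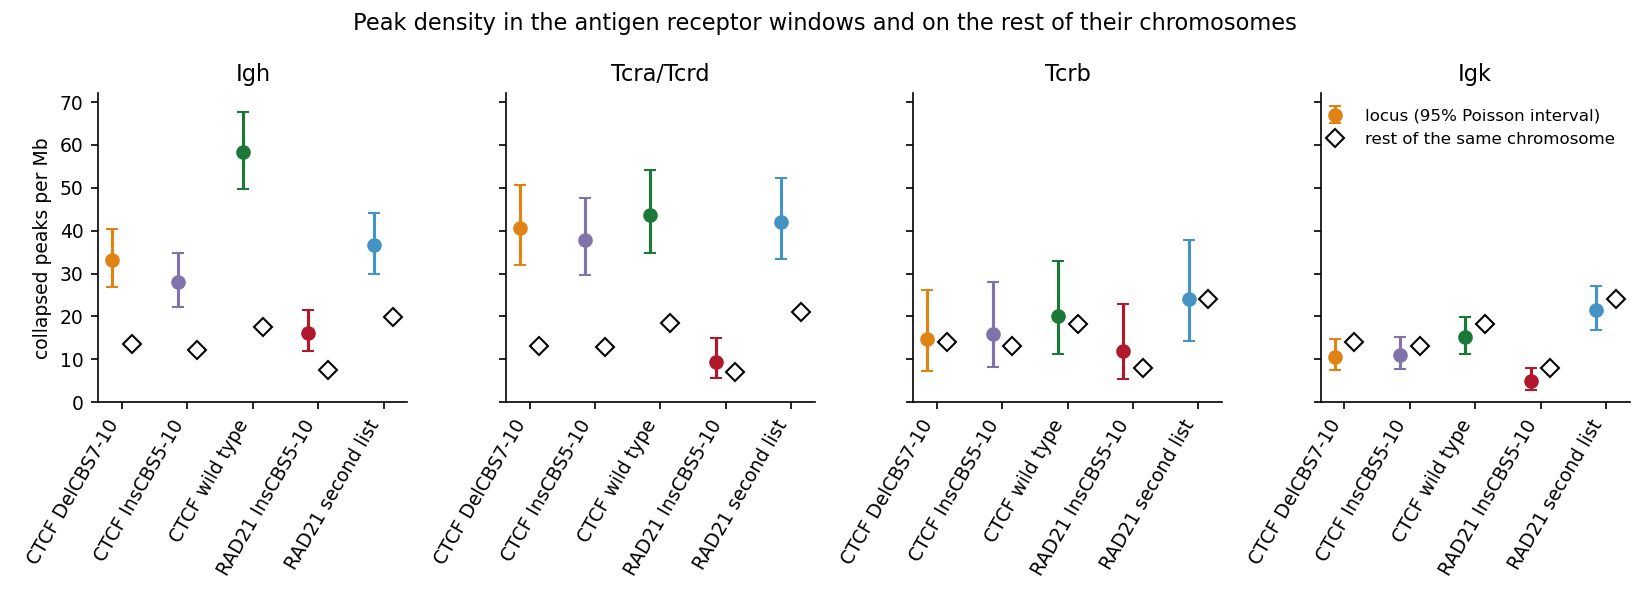
Collapsed peaks per Mb (vertical axis) in each receptor window (filled circles, bars are 95% Poisson intervals) and on the rest of the same chromosome (open diamonds), for the 5 lists along the horizontal axis. In the 3 CTCF lists the circles of Igh and Tcra/Tcrd lie between 27.9 and 58.3 per Mb, above the diamonds, and those of Tcrb and Igk lie near them.

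The 2 dense loci differed in strength. In wild type the median CTCF fold was 3.21 in Igh (95% interval of the median 3.04 to 3.42) against 5.28 on the rest of chromosome 12, a ratio of 0.608, and the same ratio of median −log10 q was 0.347. In Tcra/Tcrd it was 7.41 (6.50 to 8.57) against 5.17 on the rest of chromosome 14, a ratio of 1.44. Tcrb, at 5.83 (4.1 to 8.63), and Igk, at 4.90 (3.88 to 7.41), were close to the 5.76 of the rest of chromosome 6. The share of peaks whose −log10 q reached 5 was 43.2% in Igh against 70.2% on the rest of its chromosome, and 83.1% in Tcra/Tcrd against 67.0%.

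Summits lay closer together than on the rest of the chromosome in both dense loci. Consecutive wild-type CTCF summits were a median of 11.6 kb apart in Igh (quartiles 2.10 and 21.2 kb), against 27.0 kb on the rest of chromosome 12. In Tcra/Tcrd the median was 16.1 kb (quartiles 9.24 and 26.4 kb), against 22.6 kb (9.73 and 56.6 kb) on the rest of chromosome 14. The lower quartiles were thus close and the upper quartile was shorter in the locus. The median was 23.8 kb in Tcrb and 41.8 kb in Igk, against 24.9 kb on the rest of chromosome 6.

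In the V part of Igh the CTCF peaks of the stretch near the D segments were about as strong as those on the rest of chromosome 12. Those of the long stretch beyond it were weaker. The V part runs from Ighv5-1 to Ighv1-86 (chr12:113572929-116009954) and holds 184 annotated V segments, 63 of them pseudogenes. The V part was divided, after its values were seen, at the first segment of families 1 and 8 (Ighv8-1, at position 114332796). The 760 kb before this point held 44 wild-type CTCF peaks with a median fold of 5.18, against 5.28 on the rest of chromosome 12. The 1677 kb from it on held 107 peaks with a median fold of 3.04. A −log10 q of 5 was reached by 70.5% of peaks in the stretch near the D segments and by 29.0% beyond it. Their densities, 57.9 per Mb (42.1 to 77.7) before it and 63.8 per Mb (52.3 to 77.1) beyond it, had overlapping intervals. In the mutants the stretch near the D segments was the denser one. DelCBS7-10 had 48.7 peaks per Mb before this point and 26.8 beyond it, with intervals that overlap slightly (34.3 to 67.1 and 19.6 to 35.9). InsCBS5-10 had 44.7 before it (31.0 to 62.5) and 19.7 beyond it (13.5 to 27.6). Of the 107 wild-type peaks beyond it, 72 (67.3%) were in neither mutant list. On the rest of chromosome 12, peaks of the same fold deciles (the list divided by fold into 10 equal classes) were in neither mutant list in 68.8% of cases, so this share is near that of equally weak peaks elsewhere.

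**Figure D2:**
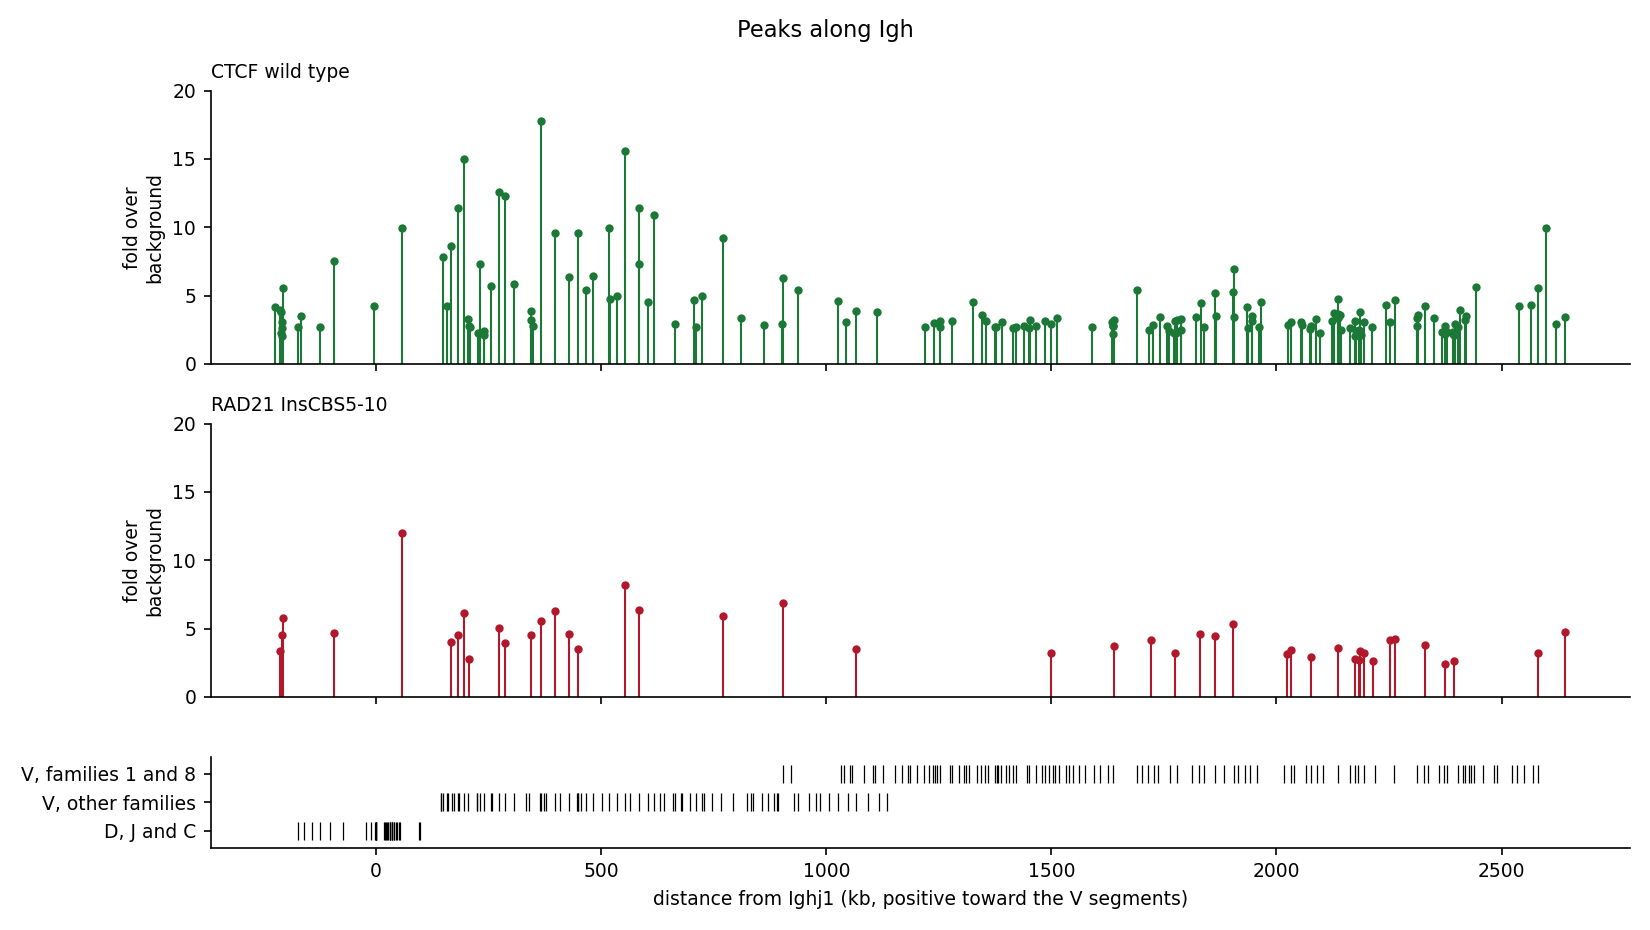
CTCF peaks of wild type (upper panel) and RAD21 peaks of InsCBS5-10 (middle panel) along Igh, with the distance from Ighj1 in kb on the horizontal axis and the fold over background on the vertical axis. Ticks in the lowest panel mark V segments of families 1 and 8, V segments of other families, and D, J and C segments. CTCF folds above 10 lie among the other families, while those at families 1 and 8 within the V part stay at 6.97 or below. A site 18316 bp beyond Ighv1-86, outside the V part, reaches 9.94.

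The 5 strongest wild-type CTCF sites of Igh each lay 45 to 67 bp from a V segment. The site at Ighv2-6-8 (chr12:113795841-113796379) had a CTCF fold of 18.5 in DelCBS7-10, 15.9 in InsCBS5-10 and 17.8 in wild type. Its RAD21 fold was 5.55 in InsCBS5-10 and 12.9 in the second list. At Ighv11-1 (chr12:113981389-113982027) CTCF had 13.8 in DelCBS7-10, 11.9 in InsCBS5-10 and 15.5 in wild type, with RAD21 at 8.17 and 11.7. The other 3 lay by Ighv5-6, Ighv5-12 and Ighv2-6, with wild-type folds of 15.0, 12.6 and 12.3. All 5 were called in all 5 lists, so the strongest sites of the locus were bound in each genotype.

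V families differed in how often they had such a site. A wild-type CTCF summit lay within 1 kb of the middle of 31 of 76 V segments outside families 1 and 8 (40.8%) and of 21 of 108 segments of families 1 and 8 (19.4%), while 10.9% of all bases of the V part lie within 1 kb of a summit. Family 2 had one at 6 of 11 segments, family 5 at 11 of 21 and family 7 at 3 of 4, but families 13, 14, 15 and 16 had none at 2, 4, 2 and 1 segments. In DelCBS7-10 the counts were 31 of 76 and 16 of 108, and in InsCBS5-10 they were 29 of 76 and 9 of 108. V segments of a family resemble each other in sequence, but how closely was not measured here. The sources used here do not say how reads that fit several segments were placed, so a peak may belong to a neighbouring segment.

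The largest distance between wild-type CTCF summits in Igh was 107 kb (chr12:114542307-114648905), among 9 V segments, and it held 1 CTCF site of DelCBS7-10. Outside its V part Igh had 8 sites called in all 3 CTCF lists. The site at chr12:113487508-113488460, 1693 bp from Adam6b, lies 5680 bp from Ighd1-1 and 85057 bp from Ighv5-1, in the interval known to hold IGCR1, with only the D segments Ighd3-1 and Ighd5-1 farther toward the V part. Its CTCF fold was 5.14 in DelCBS7-10, 7.76 in InsCBS5-10 and 9.91 in wild type. RAD21 had 11.97 in InsCBS5-10, the highest of the locus, and 8.67 in the second list. A cluster of 4 further sites at chr12:113215920-113223072 lies beyond the C genes, where CTCF sites are known to follow the 3′ regulatory region. Its wild-type CTCF folds were between 2.03 and 5.55. The strongest of them (chr12:113221938-113223072) had RAD21 folds of 5.76 in InsCBS5-10 and 5.97 in the second list. A site 4972 bp from Ighg1, the gene of an IgG constant region (chr12:113335005-113336787), had CTCF folds of 5.66 in DelCBS7-10, 8.90 in InsCBS5-10 and 7.56 in wild type. At the far end of the locus 2 sites lay 1618 and 18316 bp beyond Ighv1-86. The outer of these (chr12:116027918-116028448) had 9.11, 9.94 and 9.94 in the same order, and no RAD21 peak in InsCBS5-10.

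Tcra/Tcrd had strong sites throughout the Trav array. Of the 83 wild-type CTCF peaks, 74 lay in the 1454 kb of Trav segments up to Trdv1 (50.9 per Mb, median fold 7.33), and 7 in the 343 kb from Trdv1 to Trac (20.4 per Mb, median fold 4.74). This division was chosen after the values were seen. The strongest wild-type site lay 295 bp from Trav9-1 (chr14:53487479-53488375), with CTCF folds of 10.9 in DelCBS7-10, 13.4 in InsCBS5-10 and 17.7 in wild type. It had no RAD21 peak in InsCBS5-10 and a RAD21 fold of 5.25 in the second list. Others among the 5 strongest lay 1865 bp from Trav13n-2 (15.8 in wild type), 190 bp from Trav10n (14.1) and 73 bp from Trav3-3 (13.9).

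Trav families ranged from those with a summit at each segment to those with none. A wild-type summit lay within 1 kb of an edge of 49 of 130 Trav segments. By the middle of the segment it was 48 of the 135 V segments of the locus (35.6%), while 9.59% of all bases of the V part lie within 1 kb of a summit. A summit was present at 11 of 11 Trav9 segments (folds 6.09 to 17.7), at 3 of 3 Trav10 segments (7.22 to 14.1) and at 5 of 8 Trav3 segments (7.02 to 13.9). In 8 families some segments had one and others did not, among them Trav4 with 3 of 9, Trav5 with 6 of 9, Trav6 with 6 of 15, Trav7 with 5 of 14 and Trav12 with 5 of 10. In 12 of 23 Trav families, which together have 42 segments, no segment had a summit in any CTCF list. Of these families 8 have a single segment, and the others are Trav13 with 13 segments, Trav14 and Trav15 with 9 each and Trav16 with 3. Part of the array is duplicated in the reference, and such copies carry a d or n in their names. Of 38 segment names with more than 1 copy, all copies had a wild-type summit for 12, no copy for 19 and only some copies for 7. These counts depend on the names, because a copy with a dv suffix was counted under a name of its own. Trav6-7 is thus among the 12, although Trav6-7-dv9 had no wild-type summit. The copies of Trav15-1 and of Trav15-2, none with a summit, are left out. The copies are close to identical in sequence, so reads may have been placed on more than 1 of them and the copies are not independent sites.

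**Figure D3:**
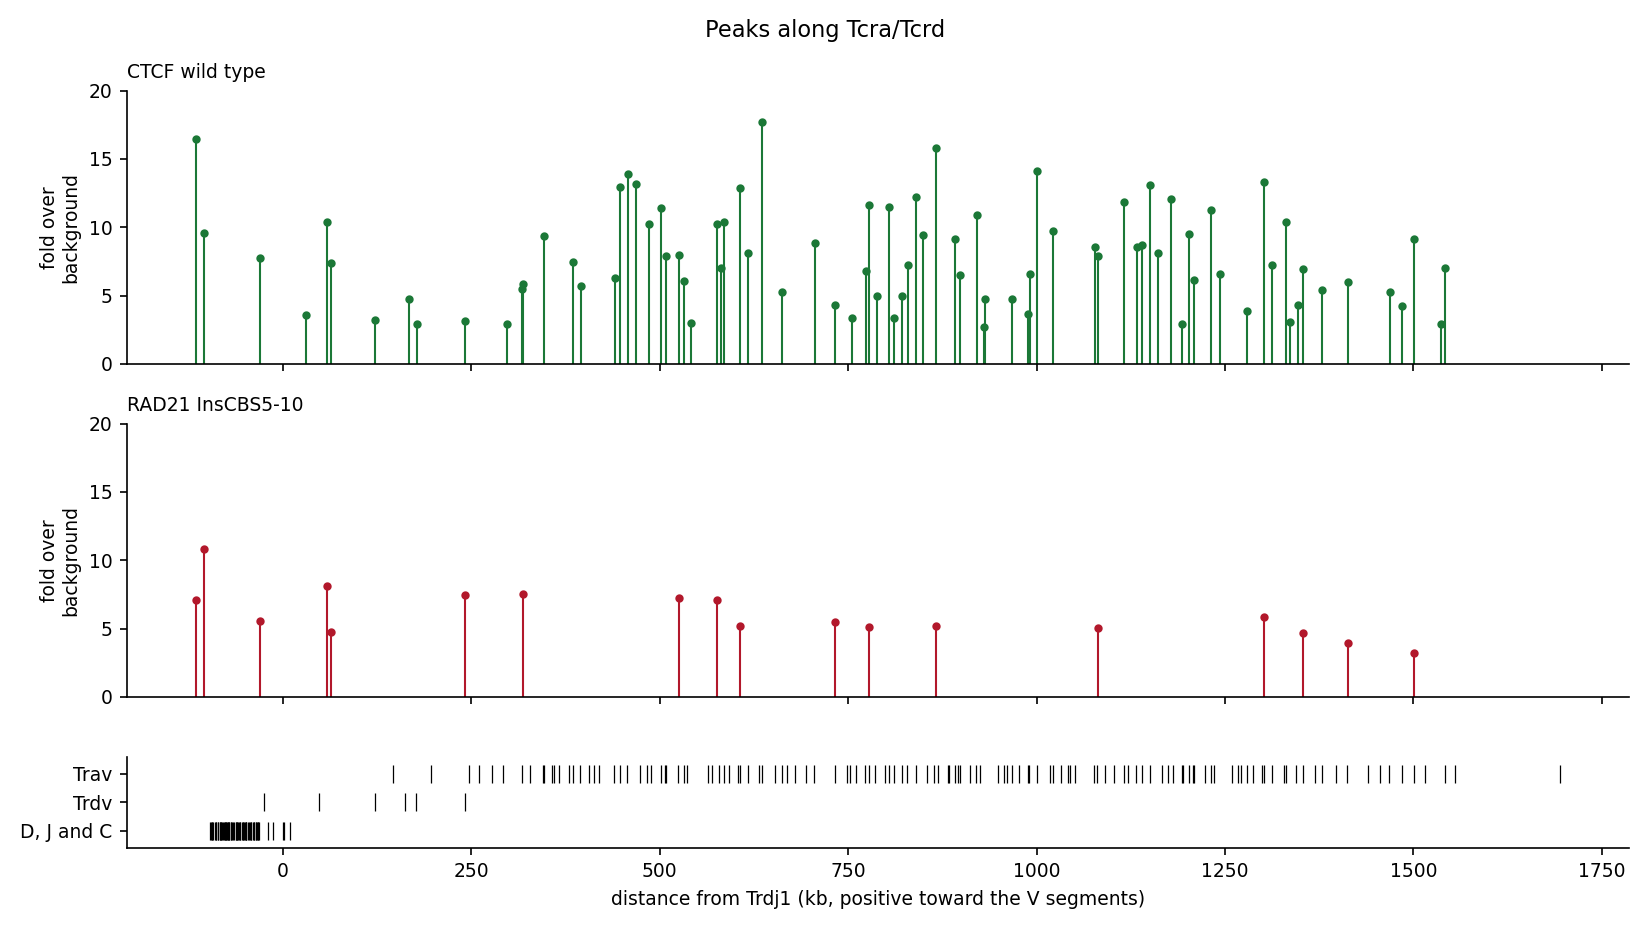
CTCF peaks of wild type (upper panel) and RAD21 peaks of InsCBS5-10 (middle panel) along Tcra/Tcrd, with the distance from Trdj1 in kb on the horizontal axis, positive toward the V segments, and the fold over background on the vertical axis. Ticks in the lowest panel mark Trav, Trdv and the D, J and C segments. CTCF peaks run through the Trav array at folds up to 17.7, RAD21 peaks are fewer there, and neither protein has a peak over the Traj segments.

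The J end of Tcra/Tcrd looked different. Between the sites at chr14:54152548-54153524 and chr14:54227585-54228781 lay the largest gap between wild-type summits, 75.1 kb, which holds 60 J segments and 1 C segment and no site of any of the 5 lists. Both of its ends had peaks in all 5 lists. The end nearest to Traj61 had CTCF folds of 5.47 in DelCBS7-10, 6.39 in InsCBS5-10 and 7.77 in wild type, with RAD21 at 5.54 in InsCBS5-10 and 9.72 in the second list. The end 3905 bp beyond Trac, the alpha constant gene, had CTCF folds of 6.48, 6.39 and 9.58 in that order and RAD21 folds of 10.8 in InsCBS5-10, the highest there in the locus, and 10.3 in the second list. A site inside Dad1, a housekeeping gene next to Trac (chr14:54238811-54239565), had 9.57 in DelCBS7-10, 10.3 in InsCBS5-10 and 16.5 in wild type. At the other end of the window 4 olfactory receptor genes (chr14:52409889-52495695) held no site, and the first summit of the locus lay at position 52534431.

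Where CTCF lay close to a V segment, it was mostly on the side of the D and J segments in Igh families other than 1 and 8, and mostly on the opposite side in the T cell receptor loci. In wild type 56 Igh V segments had a summit within 1 kb of an edge. It lay on the side that faces the D and J segments in 34, inside the segment in 8 and on the other side in 14. On the D and J side the median distance was 65 bp, and 28 of the 34 were within 150 bp. Families other than 1 and 8 had 25 of 31 segments with the summit on the D and J side, 4 on the other side and 2 inside. Families 1 and 8 showed no such preference in wild type, with 9 of 25 on the D and J side, 10 on the other side and 6 inside. In Tcra/Tcrd 52 V segments had such a summit, and it lay on the side away from the D and J segments in 51 of them, at a median of 246 bp. In Tcrb it lay on the side away from them in 6 of 6. On the D and J side of Igh segments outside families 1 and 8 lay 27 of 32 summits in DelCBS7-10 and 26 of 30 in InsCBS5-10, and in families 1 and 8 it was 7 of 19 and 4 of 14. On the other side of Tcra/Tcrd segments lay 49 of 49 in DelCBS7-10 and 41 of 44 in InsCBS5-10. RAD21 of InsCBS5-10 lay on the D and J side at 10 of 11 Igh segments outside families 1 and 8 and at 5 of 10 within them, and on the other side at 8 of 8 Tcra/Tcrd segments. In the second RAD21 list these counts were 21 of 25, 3 of 16 and 42 of 43. There 13 of the 16 segments of families 1 and 8 had the summit on the other side. In these families it was 10 of 19 for DelCBS7-10 CTCF, 8 of 14 for InsCBS5-10 CTCF and 5 of 10 for InsCBS5-10 RAD21. The division by family was chosen after the values were seen. The end of a V segment that faces D and J carries the recombination signal and its other end the promoter, where segments are joined by deletion. Copies of a segment share their sequence, so these counts are not of independent sites.

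**Figure D4:**
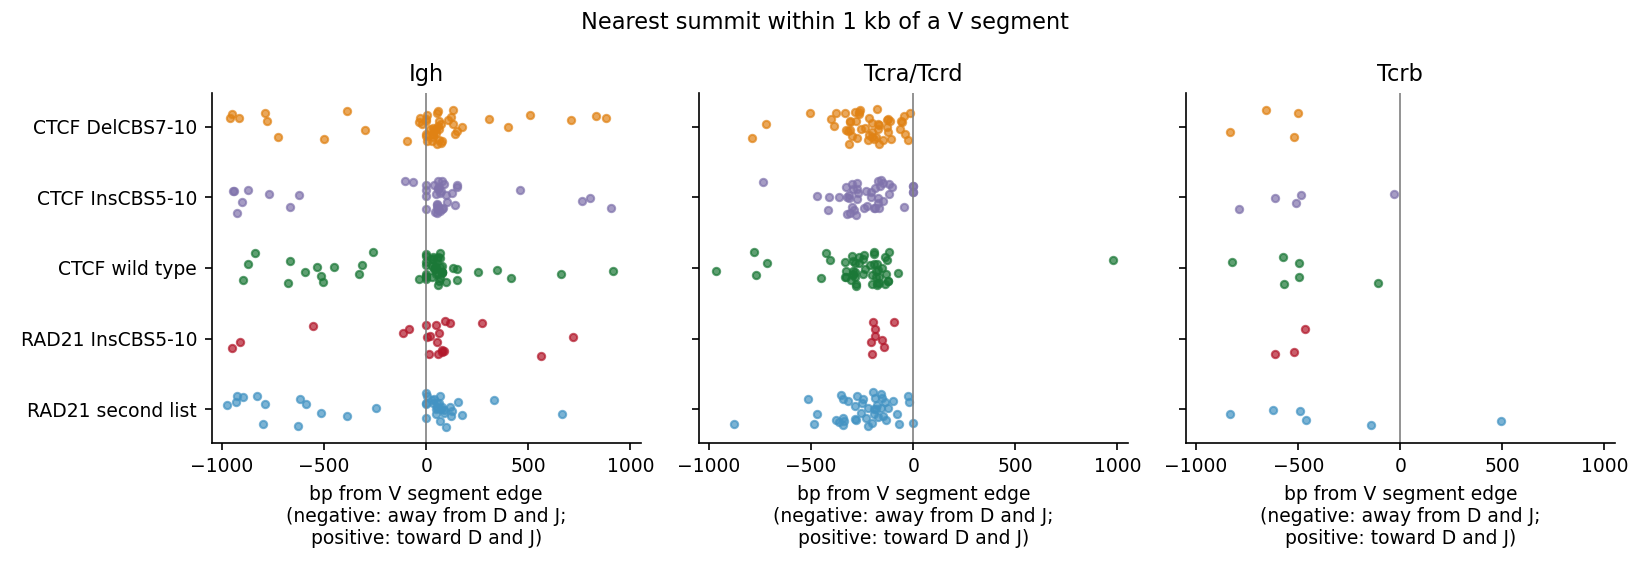
Distance from a V segment's edge to the nearest summit within 1 kb (horizontal axis, bp, positive toward the D and J segments, 0 for summits inside the segment), for the 5 lists (rows) in Igh, Tcra/Tcrd and Tcrb. Each point is a V segment, with vertical scatter for visibility only. In wild type 34 of 56 points lie on the positive side in Igh, against 1 of 52 in Tcra/Tcrd and 0 of 6 in Tcrb.

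Tcrb had 23 sites, 8 of them in all 3 CTCF lists and all 8 in its V part. The strongest lay 1557 bp from Trbv14 (chr6:41136817-41137409), with CTCF folds of 9.65 in DelCBS7-10, 10.4 in InsCBS5-10 and 12.4 in wild type and RAD21 folds of 8.96 in InsCBS5-10 and 9.17 in the second list. Next came a site 494 bp from Trbv12-1 (chr6:41112875-41113486), with CTCF folds of 8.59, 8.65 and 12.3 in the same order. From a site 3650 bp before Trbv28 to a site near Trbd1 no CTCF site of any list was found over 267 kb. This gap holds 3 V segments and 8 protein-coding genes, among them the trypsinogen genes Prss1, Prss2, Prss3, Try4, Try5 and Try10, whose products are digestive proteases, and it had 1 site with RAD21 in InsCBS5-10 and 5 in the second list. The site at its D end (chr6:41530169-41530821, 2961 bp before Trbd1) had CTCF folds of 3.53 in InsCBS5-10 and 4.81 in wild type and was not called in DelCBS7-10. A site 1018 bp from Trbv31, the V segment beyond the constant genes (chr6:41556142-41556935), had 4.53 in DelCBS7-10 and 4.03 in wild type and was not called in InsCBS5-10. These weaker sites at both ends of the D, J and C part were thus each missing from 1 mutant list.

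Igk had few CTCF peaks for its many V segments, and no excess of them close to V segments. No V segment of 162 had a summit within 1 kb of its middle in either mutant list, and 1 did in wild type. Only 1.72% of the bases of its V part lie within 1 kb of a summit in each mutant and 2.62% in wild type, so these counts are near that background. The median distance from a V segment to the nearest summit was 35.8 kb in DelCBS7-10, 44.9 kb in InsCBS5-10 and 28.5 kb in wild type, against 4.28 kb for Igh and 2.77 kb for Tcra/Tcrd in wild type. Its strongest site (chr6:67698921-67699588, 11986 bp from the nearest V segment) had CTCF folds of 9.17 in DelCBS7-10, 12.8 in InsCBS5-10 and 14.1 in wild type. The largest distance between wild-type summits was 263 kb (chr6:68668636-68932056), which holds 14 V segments and no CTCF site of any list. The interval of 18.4 kb between the last V segment and Igkj1, which is known to hold the Cer and Sis elements, had 3 sites. The first (chr6:70708985-70710164) had CTCF folds of 5.01 in DelCBS7-10 and 5.06 in wild type with none called in InsCBS5-10, and RAD21 folds of 7.16 in InsCBS5-10 and 6.46 in the second list. The others (chr6:70713161-70713400 and chr6:70714252-70714586) were in all 3 CTCF lists, with wild-type folds of 3.72 and 6.21, and had no RAD21 peak in InsCBS5-10.

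The flank of Igk beyond its constant gene held the strongest RAD21 site of all 4 loci in InsCBS5-10. At chr6:70752260-70752923 RAD21 had 13.2 in InsCBS5-10 and 7.37 in the second list, and CTCF had 4.40 in DelCBS7-10, 4.57 in InsCBS5-10 and 9.34 in wild type. A site within Rpia (chr6:70768630-70769216) had CTCF folds of 9.36, 11.7 and 13.0 in that order and RAD21 folds of 8.91 and 9.87. Another flanking site in all 3 CTCF lists (chr6:70797718-70798297) had 9.37, 7.61 and 10.3 and no RAD21 peak in InsCBS5-10.

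CTCF peaks of Tcra/Tcrd had RAD21 less often than others in InsCBS5-10. Of 72 CTCF peaks of InsCBS5-10 in the locus, 16 overlapped a RAD21 peak of InsCBS5-10 by 1 bp or more (22.2%, Clopper-Pearson 95% interval 13.3 to 33.6), against 45.9% on the rest of chromosome 14 and 48.2% in the whole list. Peaks on the rest of the chromosome with the same fold deciles had RAD21 in 55.2% of cases. Among the stronger CTCF peaks (deciles 6 to 10) the share was 13 of 47 in the locus (27.7%, 15.6 to 42.6), against 66.9% on the rest of the chromosome. Within the locus 11 of 64 Trav peaks had RAD21 (17.2%), and 3 of 6 from Trdv1 to Trac. The 3 sites of the locus with the highest RAD21 fold in InsCBS5-10 lay beyond Trac, 10280 bp from Trdv4 (chr14:54064428-54065311, RAD21 8.14) and 2184 bp from Trav17 (chr14:53804141-53804632, RAD21 7.55).

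The second RAD21 list gave another picture when set on wild-type CTCF. There 56 of 83 CTCF peaks of Tcra/Tcrd had RAD21 (67.5%, 56.3 to 77.4), against 62.5% on the rest of chromosome 14 and 68.7% in the whole list. Peaks of the same fold deciles on that chromosome had it in 79.2% of cases, and among deciles 6 to 10 the locus had 47 of 57 (82.5%, 70.1 to 91.3) against 94.4%. For all peaks and for deciles 6 to 10, the share was thus below that of equally strong peaks with either RAD21 list. In each case the latter lay outside the interval of the locus. Among deciles 1 to 5 it lay inside. There the locus had 9 of 26 with the second list (34.6%, 17.2 to 55.7), against 35.2%. In InsCBS5-10 it had 3 of 25 (interval 2.55 to 31.2%), against 26.4%. The intervals count near-identical Trav copies as independent peaks. The RAD21 lists differ in length, 19610 against 59484 peaks, and the parts of genotype, library and source in the difference between them cannot be told apart.

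In Igh 28 of 81 CTCF peaks of InsCBS5-10 had RAD21 (34.6%, 24.3 to 46.0), against 50.9% on the rest of chromosome 12. Peaks of the same fold deciles there had it in 39.7% of cases, which lies inside the interval. The share was 13 of 36 in Igk (36.1%, 20.8 to 53.8) and 6 of 12 in Tcrb (50.0%, 21.1 to 78.9), against 50.1% on the rest of chromosome 6. At the same fold deciles that chromosome had 44.9% for Igk and 46.5% for Tcrb, each inside the interval of its locus. With the second list on wild-type CTCF the share was 75 of 169 in Igh (44.4%, 36.8 to 52.2), 38 of 50 in Igk (76.0%) and 12 of 15 in Tcrb (80%). All peaks on the rest of chromosome 12 had RAD21 in 63.15% of cases, above the interval of Igh, and those of chromosome 6 in 72.7%. At the same fold deciles the values were 37.0% for Igh, inside its interval, 69.6% for Igk and 80.2% for Tcrb. Seen from RAD21, 28 of 47 RAD21 peaks of InsCBS5-10 in Igh overlapped CTCF of InsCBS5-10 (59.6%, 44.3 to 73.6), against 83.1% on the rest of chromosome 12 and 84.8% in the whole list. RAD21 peaks of the same fold deciles there did so in 66.8% of cases, inside the interval. In Tcra/Tcrd 16 of 18 did (88.9%). In the second list 70 of 106 RAD21 peaks in Igh overlapped wild-type CTCF (66.0%, 56.2 to 74.96), against 54.6% in the whole list and 43.0% at the same fold deciles. Of the 90 RAD21 peaks of InsCBS5-10 in the 4 loci, 76 were also in the second list (84.4%), against 94.5% in the whole list, and the 14 others were all in Igh. At the same fold deciles on the rest of the chromosomes it was 86.7%, inside the interval of the 4 loci (75.3 to 91.2). In Igh 70.2% were in the second list (55.1 to 82.7), against 76.8% at the same deciles.

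**Figure D5:**
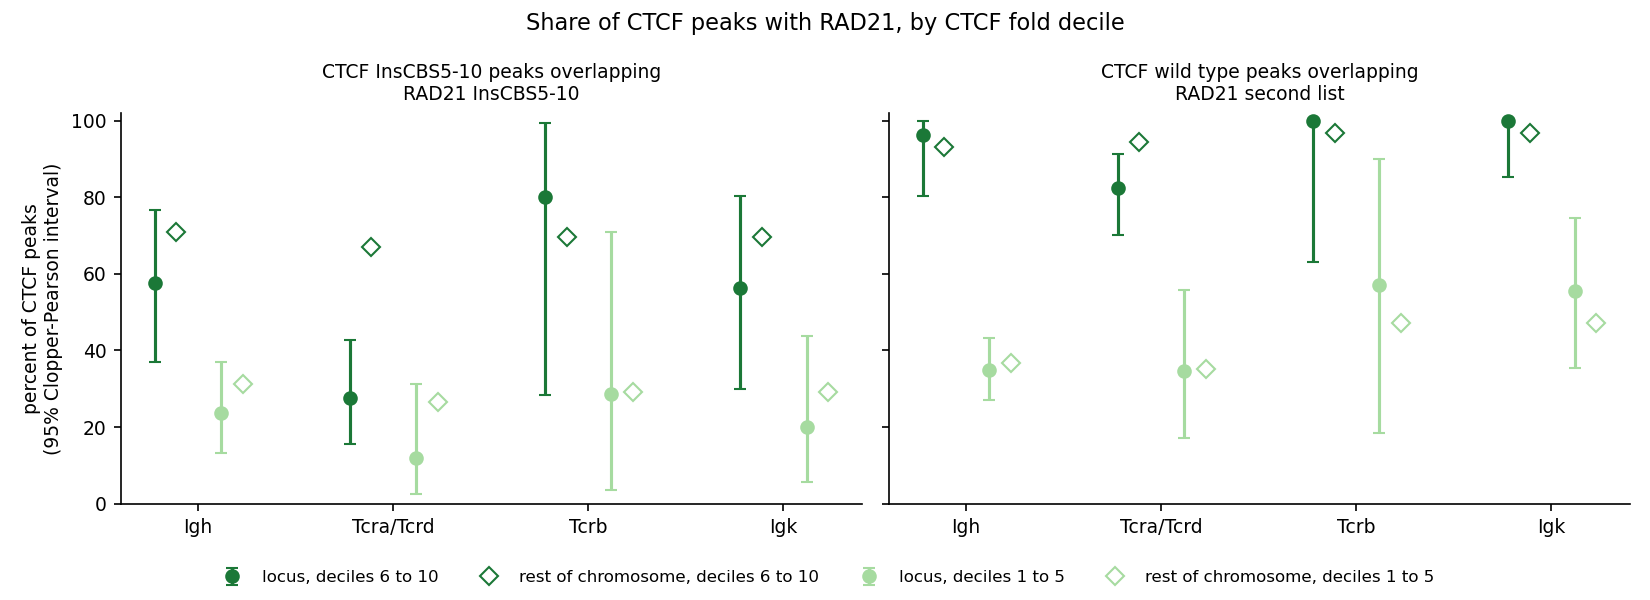
Percent of CTCF peaks that overlap a RAD21 peak in each locus (filled circles, bars are 95% Clopper-Pearson intervals) and on the rest of its chromosome (open diamonds), for CTCF peaks of fold deciles 6 to 10 (dark) and 1 to 5 (light). The left panel sets InsCBS5-10 CTCF on InsCBS5-10 RAD21 and the right panel wild-type CTCF on the second RAD21 list. In the left panel the dark circle of Tcra/Tcrd lies at 27.7%, under a diamond at 66.9%.

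CTCF peaks of the receptor loci were shared between genotypes about as often as equally strong peaks elsewhere. Of 219 CTCF peaks of DelCBS7-10 in the 4 loci 80.4% were also in the wild-type list (74.5 to 85.4), against 86.0% in the whole list and 81.8% at the same fold deciles of chromosomes 6, 12 and 14. For InsCBS5-10 it was 84.1% of 201 (78.3 to 88.8), against 87.7% in the whole list and 82.4% at the same deciles. Of the 317 wild-type peaks, 143 were in both mutant lists (45.1%, 39.5 to 50.8), against 57.6% of the whole list, and 116 were in neither (36.6%), against 28.6% of the whole list. The shares in both lists were 29.6% in Igh, 71.1% in Tcra/Tcrd, 53.3% in Tcrb and 52.0% in Igk, against 25.6%, 71.8%, 64.6% and 53.9% at the same deciles on the rest of their chromosomes. Each of these values at the same deciles lay inside the 95% interval of its locus.

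A few strong sites were called in some lists only. The strongest site of the 4 loci in a single CTCF list lay 329 bp from Trav9n-1 (chr14:53101343-53101528), with a fold of 9.70 in wild type. Its copies Trav9-1 and Trav9d-1 had a summit in all 3 CTCF lists, and reads may have been placed on another copy. In Igk a site 2745 bp from Igkv8-23-1 (chr6:70243077-70243615) had 8.39 in wild type and no CTCF peak in either mutant, while RAD21 had 4.61 there in InsCBS5-10 and 7.69 in the second list. At 4837 bp from Trav15d-2-dv6d-2 (chr14:52961968-52962491) CTCF had 9.84 in DelCBS7-10 and 8.14 in wild type and was not called in InsCBS5-10. At 3619 bp from Ighv1-78 (chr12:115872590-115872787) it had 8.23 in InsCBS5-10 and 5.64 in wild type and was not called in DelCBS7-10. The strongest CTCF site called in InsCBS5-10 alone lay by Trav6d-3 (chr14:52724591-52725348), at 6.68, with a RAD21 fold of 5.91 in the second list. Its copy Trav6-3 had a CTCF summit in InsCBS5-10 only as well, at 4.05, with a RAD21 fold of 6.03 in the second list. Reads may have been placed on either copy. With 1 library a group, whether these differ between genotypes was not tested.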

How the data were processed

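CTCF was mapped in DelCBS7-10, InsCBS5-10 and wild-type gastruloids and RAD21 in InsCBS5-10, with 1 library per group. The groups were taken from the sample labels. A second RAD21 list has no sample and is used as the authors' own list. The submitters' processing notes name mm10 as the build, MACS2 (2.2.7.1) and cutadapt (4.1). The sources used here give neither the tools of the second list nor, for any list, the aligner, mapping filter, control or caller options. The deposited fold enrichment is a ratio within a library, and the deposited −log10 q, at least 1.30 in every list, was used to choose summits and to filter. The deposited summit offset is a number of bp from the peak's start.

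Intervals with several summits were collapsed to the summit of highest −log10 q. Lists were made per library, and peaks overlapping by 1 bp or more were counted as shared. The rest of a chromosome excludes the 4 windows and runs from its first to its last peak in that list. Intervals are 95% Poisson, Clopper-Pearson and, for medians, binomial order-statistic intervals. They cover counting error only, since the number of reads is unknown. Deciles divide a list by fold into 10 equal classes. The division of the Igh V part and V families, that of Tcra/Tcrd at Trdv1, the counts by Trav family and copy, the 150 bp count and the split into deciles 1 to 5 and 6 to 10 were chosen after the values were seen. Segments and genes come from RefSeq annotation of GRCm38.p6, the assembly of mm10, without strand. Python 3.11.15 and scipy 1.17.1 were used, and counting and overlap were tested on simulated peaks. No genome was used, so motifs under summits were not analysed here.

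Named sites are, per locus, the 5 strongest by wild-type CTCF fold, the 3 strongest by RAD21 fold of InsCBS5-10, both ends of the largest gap, sites outside the V part in all 3 CTCF lists, and the strongest sites missing from or found in a single CTCF list. The loci, lists and rules were chosen with earlier results of these data known.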

Additional observations from a re-analysis of the deposited data

How the results depend on the processing

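The density ratio, the ratio of median folds and the gap in RAD21 share (locus minus rest of the chromosome, in percentage points) were recomputed as 96 values. Of these, 81 stayed inside the interval of the value reported, 14 left it with the same direction and 1 left it in the other direction. Every one for Tcrb and Igk stayed inside, but these intervals are wide, and some of these values changed direction within them. The Igk gap in RAD21 share, for instance, was -13.9 points, and 3.30 with the second RAD21 list on wild-type CTCF. The Igh density ratio, 3.33, was 2.04 once −log10 q had to reach 5, 2.28 in InsCBS5-10 and 2.44 in DelCBS7-10. That of Tcra/Tcrd, 2.38, was 2.95 with this filter and 3.11 in DelCBS7-10. The Igh ratio of median folds, 0.608, was 0.671 with the filter, 0.347 with −log10 q in place of fold, 0.736 in InsCBS5-10 and 0.734 in DelCBS7-10. That of Tcra/Tcrd, 1.44, was 1.12, 2.05, 1.19 and 1.15 under the same choices. The gap in RAD21 share of Tcra/Tcrd, -23.7 points, was -33.0 against a rest weighted to the same fold deciles and 4.95, in the other direction, with the second RAD21 list on wild-type CTCF. The cause was not tested. No paired analysis was possible because each group was 1 library, and for the same reason no replicate could be left out. Depth is unknown, so a peak that was not called may still be bound, and near-identical V segments limit which copy a peak belongs to.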
